A study of Homo sapiens with 9 samples.

Results

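In SUIT2, a human pancreatic cancer cell line, 57 protein-coding genes were at least 2-fold above control after 6 h of interferon beta and lay between 20% below and 25% above control at 24 h. The set was chosen from the measured values themselves. Estimated counts were rounded, genes with low counts were left out, and levels were expressed as CPM, that is counts scaled to a common library size, with TMM factors, edgeR's correction for differences in library composition. A member had a mean of at least 2 CPM at 6 h, a ratio of the 6 h to the control mean of at least 2, a 24 h mean from 20% below to 25% above the control mean, and its lowest 6 h library above its highest control library. SOCS1 and MLKL were left out by name, and 1 of them met the rule. The 57 members were found among 59609 genes in the deposited table, of which 16964 passed the low-count filter and 12782 of those were protein-coding. Because these contrasts chose the members, their levels are given below as a description with no test.

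The libraries formed 3 groups of 3, all of SUIT2 cells and all of total RNA: cells in medium with 100 U/mL human IFNβ for 6 h, cells with the same dose for 24 h, and cells labelled control treated. The protocol text on the control samples is the same as on the treated ones, and the labels give no duration for the controls. The series set out to define which transcripts change after either exposure. Replicates are numbered, but nothing says that they came from separate cultures, so p-values here cover only how these particular libraries varied, and that variation may be technical.

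Type I interferons such as IFNβ bind a receptor that carries the kinases JAK1 and TYK2. These phosphorylate STAT proteins, which with IRF9 form the complex ISGF3 and bind interferon-stimulated response elements (ISRE) in promoters, while STAT dimers bind gamma-activated sequences (GAS). Transcripts induced in this way differ in how long they stay raised, since signalling is limited by feedback inhibitors such as USP18 and since mRNAs are cleared at different rates.

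Estimated counts totalled 16799278 to 37420457 per library at 6 h, 25270387 to 40384407 at 24 h and 15101734 to 19632741 in control. Ductal and epithelial markers fitted the label, with 9 of 10 passing the filter and a summed level of 5593 to 5901 CPM at 6 h, 5526 to 5649 CPM at 24 h and 4978 to 5051 CPM in control. Of 14 leukocyte markers 2 passed the filter, with summed levels of 254 to 267 CPM at 6 h, 317 to 341 CPM at 24 h and 224 to 229 CPM in control, nearly all of it LYZ, and 7, PTPRC and CD3E among them, had no count in any library. Of 15 fibroblast, endothelial and acinar markers 4 passed, with summed levels of 7.29 to 8.31 CPM at 6 h, 5.86 to 6.58 CPM at 24 h and 4.24 to 5.34 CPM in control, and DCN, KDR and CPA1 had no count. In bulk libraries, fewer cells expressing a gene and less RNA per cell cannot be told apart.

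The transient genes had modest 6 h ratios, which follows in part from the rule. A gene with a larger rise must lose a larger share of it to reach the 24 h window. BATF2, with a 6 h ratio of 347, fell to 0.0461 times its 6 h mean and was still at a 24 h ratio of 16. The lack of members at high ratios is therefore not read as a trait of these genes. Leaving out the genes excluded by name, 414 protein-coding genes met the same conditions at 6 h: 57 were the members, 344 lay more than 25% above control at 24 h and 13 more than 20% below. All 416 such genes, including those excluded by name, fell into 154 with a 6 h ratio of 2 to 3, of which 47 were members, 127 with a ratio of 3 to 8, of which 10 were members, and 135 with a ratio of 8 or more, of which 0 were members. The members' 6 h ratios ran from 2.02 to 6.499 with a median of 2.42. The median was 5.496 for the 344 genes more than 25% above control at 24 h, called below genes that stayed raised. That name describes the 24 h mean only. IDO1 went from a ratio of 234.5 at 6 h to 5.78 at 24 h, and the 24 h libraries of ZMYND15 overlapped control. In 30 members, in turn, every 24 h library lay above every control library, so the sets do not cleanly part lasting from transient rises. Their 24 h ratios ran from 0.8345 to 1.24, with a median of 1.09. The share of all 16964 tested genes that met the conditions without regard to gene type was 0.389%, or 66 genes.

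**Figure D1:**
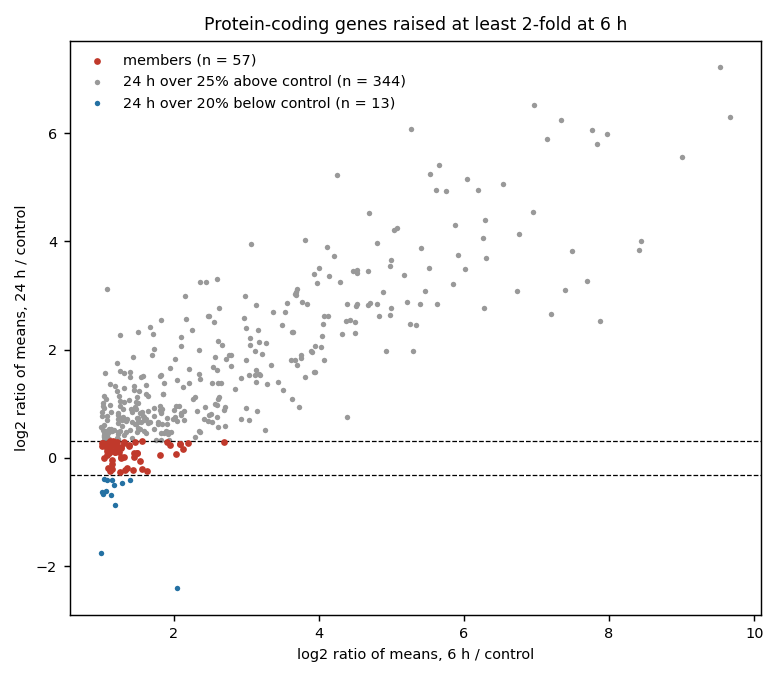
Each point is 1 protein-coding gene that was at least 2-fold above control at 6 h, placed by the log2 ratio of its 6 h to its control mean (horizontal axis) and of its 24 h to its control mean (vertical axis), with dashed lines 20% below and 25% above control. The 57 members lie between the lines at the left of the plot, 344 genes lie above the upper line and 13 below the lower one.

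The limits of the rule cut through a continuous range. Just inside the upper limit at 24 h were CHSY3 with a ratio of 1.239, DNPEP with 1.237 and GTPBP2 with 1.236, and just outside it TRIM25 with 1.252, MOB3C with 1.255 and OPTN with 1.259. The nearest members to the lower limit were PSORS1C1 with 0.8345 and GNB4 and SFR1 with 0.845 each, and outside it were SIK1 with 0.766, LRRC3 with 0.757 and FAM122C with 0.753. For the ratio at 6 h, the lowest members were GTF2E2 with 2.02, CTNNBL1 with 2.03 and SIPA1L1 with 2.03, and the first genes left out were NFIX with 1.998, MEF2C with 1.995 and NNMT with 1.995. In all, 27 genes lay above the upper 24 h limit with a ratio of up to 1.4, 6 below the lower one with a ratio of at least 0.7, and 40 had a 6 h ratio from 1.8 to 2 with the other conditions met.

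By 24 h the members lay at 0.190 to 0.601 times their 6 h mean, with a median of 0.438. The part of the 6 h rise over control that was left at 24 h had a median of 5.99% and ran from -13.1% in SFR1 to 21.1% in GTF2E2, a negative value being a 24 h mean below control. In all 57 members every 24 h library lay below every 6 h library, which held for 32.4% of tested genes, while edgeR called 30.6% of tested genes lower at 24 h than at 6 h. In 30 members every 24 h library also lay above every control library, in 8 every one lay below, and in 19 the groups overlapped; among tested genes the shares were 29.9% above and 30.1% below. At 6 h every library lay above every control library by the rule, as in 21.3% of tested genes. The rule fixes part of these counts, and nothing is read from them.

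**Figure D2:**
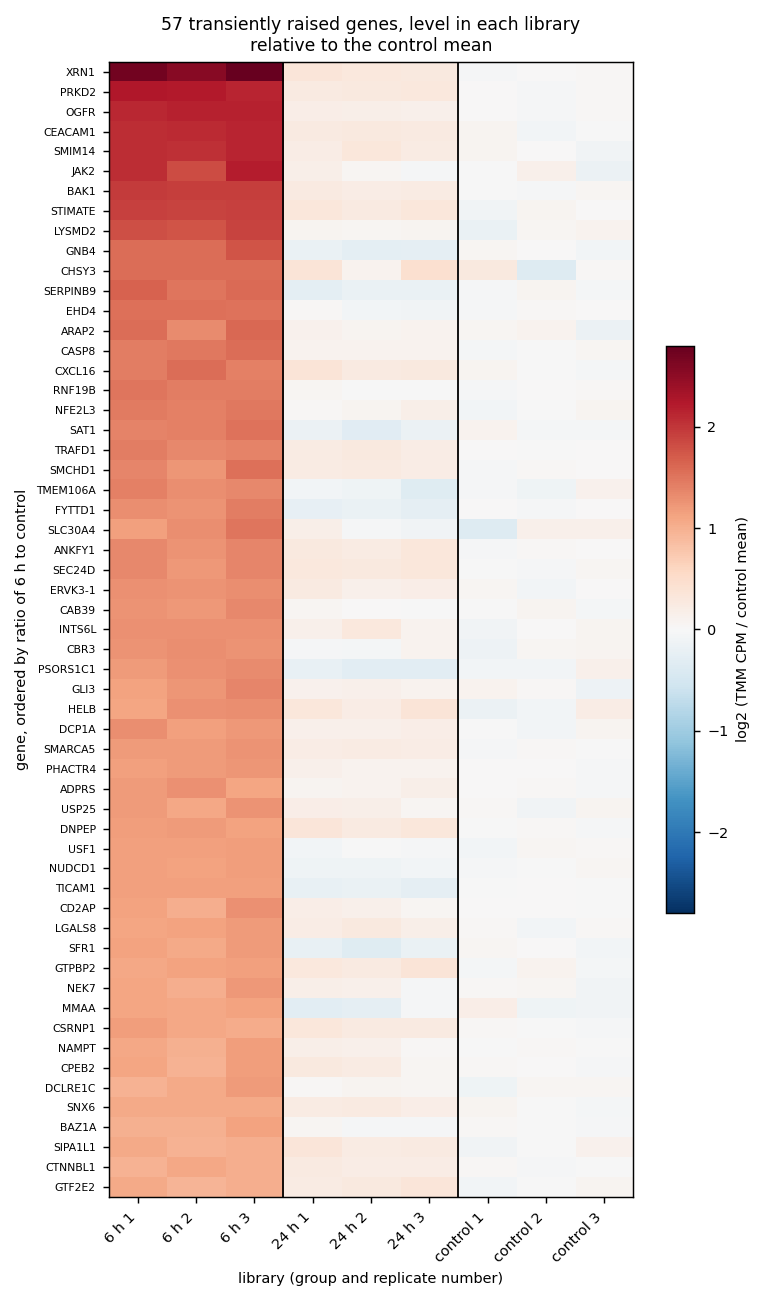
Rows are the 57 members in order of the ratio of 6 h to control, columns are the 9 libraries, and colour gives log2 of the level over the control mean. The 6 h columns are red in every row, and the 24 h columns are near white, pale red in the 30 members whose 24 h libraries all lay above control and pale blue in the 8 where they all lay below.

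Promoters of 6 members are shown, taken in order of the 6 h ratio. The first 4 in that order with letters that ISGF3 or STAT dimers bind were PRKD2, OGFR, CEACAM1 and CASP8. The first 2 without such letters were XRN1 and SMIM14. The 6 therefore hold such letters more often than the set, in which 10 of 46 promoters do. Sequences are from RefSeq on GRCh38.p14, 250 bases before to 50 bases after the gene's start, 5′ to 3′ on the gene's own strand. Capitals mark the ISRE core (GAAA, any 2 bases, GAAA) or the GAS core (TTC, any 3 bases, GAA), each searched on both strands, so that an ISRE core on the other strand reads TTTC, any 2 bases, TTTC. The first 4 hold at least 1 of these cores and the last 2 hold neither. PRKD2 is at chr19:46717065-46717364, minus strand, with a GAS core from base -203 relative to the start. OGFR is at chr20:62804585-62804884, plus strand, with an ISRE core from base -22. CEACAM1 is at chr19:42528432-42528731, minus strand, with an ISRE core from base -116. CASP8 is at chr2:201233213-201233512, plus strand, with a GAS core from base -200 and an ISRE core from base -3. XRN1 is at chr3:142447988-142448287 and SMIM14 at chr4:39638816-39639115, both on the minus strand.
PRKD2: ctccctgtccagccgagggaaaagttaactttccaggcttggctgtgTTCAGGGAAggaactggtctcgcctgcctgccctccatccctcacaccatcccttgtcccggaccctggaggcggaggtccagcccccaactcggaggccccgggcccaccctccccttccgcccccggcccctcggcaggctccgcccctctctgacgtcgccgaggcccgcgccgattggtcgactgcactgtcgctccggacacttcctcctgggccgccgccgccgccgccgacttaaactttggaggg
OGFR: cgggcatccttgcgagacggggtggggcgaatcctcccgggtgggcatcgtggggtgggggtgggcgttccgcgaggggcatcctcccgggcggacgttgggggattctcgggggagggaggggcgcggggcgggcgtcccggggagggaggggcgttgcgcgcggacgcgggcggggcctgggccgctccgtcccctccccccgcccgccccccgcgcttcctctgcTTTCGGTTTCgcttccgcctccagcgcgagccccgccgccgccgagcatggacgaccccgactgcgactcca
CEACAM1: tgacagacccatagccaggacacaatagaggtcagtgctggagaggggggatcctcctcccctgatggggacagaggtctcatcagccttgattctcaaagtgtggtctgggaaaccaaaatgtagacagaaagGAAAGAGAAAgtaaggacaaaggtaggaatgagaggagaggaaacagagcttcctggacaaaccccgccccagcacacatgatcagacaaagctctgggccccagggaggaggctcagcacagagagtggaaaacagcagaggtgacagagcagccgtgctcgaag
CASP8: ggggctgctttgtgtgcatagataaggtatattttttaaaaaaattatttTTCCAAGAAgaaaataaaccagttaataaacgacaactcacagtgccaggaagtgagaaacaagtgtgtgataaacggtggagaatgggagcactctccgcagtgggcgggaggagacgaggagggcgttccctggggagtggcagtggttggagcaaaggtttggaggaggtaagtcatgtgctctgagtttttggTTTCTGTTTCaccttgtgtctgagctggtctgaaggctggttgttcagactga
XRN1: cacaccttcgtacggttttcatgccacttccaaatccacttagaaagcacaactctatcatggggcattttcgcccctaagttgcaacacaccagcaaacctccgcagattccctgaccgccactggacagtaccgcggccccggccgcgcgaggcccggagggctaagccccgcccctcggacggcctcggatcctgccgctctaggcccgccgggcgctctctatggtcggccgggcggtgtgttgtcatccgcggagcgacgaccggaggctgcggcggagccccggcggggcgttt
SMIM14: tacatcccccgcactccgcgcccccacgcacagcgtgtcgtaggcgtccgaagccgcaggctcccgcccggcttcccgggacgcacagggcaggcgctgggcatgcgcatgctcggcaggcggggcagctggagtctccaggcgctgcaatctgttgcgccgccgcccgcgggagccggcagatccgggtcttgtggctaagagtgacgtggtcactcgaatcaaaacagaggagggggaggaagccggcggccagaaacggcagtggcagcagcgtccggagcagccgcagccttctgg

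Over the 46 members with a promoter in the RefSeq table, 4 held the ISRE core (8.7%), against 71 of 240 promoters of genes that stayed raised (29.6%), 297 of 10331 promoters of protein-coding genes that passed the filter (2.87%) and 3.65% of all 27305 promoters. The fourth promoter with an ISRE core, after OGFR, CEACAM1 and CASP8, was that of SMARCA5, with overlapping cores from bases -125 and -119. A GAS core stood in 7 of the 46 (15.2%), against 30 of 240 (12.5%), 643 of 10331 (6.22%) and 7.88% of all promoters. These were PRKD2, CASP8, TMEM106A, ERVK3-1, HELB, USF1 and SFR1. Neither core was found in 36. Among genes that stayed raised with a 6 h ratio of 8 or more, a range with no member, 45 of 92 promoters (48.9%) held the ISRE core, so the shares are also given at like ratios. At a 6 h ratio of 2 to 3 the ISRE core stood in 2 of 36 members (5.56%) and 9 of 67 genes that stayed raised (13.4%). At 3 to 8 it stood in 2 of 10 members and 17 of 82 genes that stayed raised (20.7%). The GAS core stood in 6 of 36 members (16.7%) and 4 of 67 genes that stayed raised (5.97%) at 2 to 3. At 3 to 8 it stood in 1 of 10 members and 14 of 82 genes that stayed raised (17.1%). The TATA letters (TATAAA) were in 10.9% of member promoters, 8.33% of those that stayed raised, 5.54% of the protein-coding set and 3264 of all 27305. A loose kappaB core (GGG, any 5 bases, CC) was in 73.9%, 65.8%, 73.9% and 58.0% of the same sets. A match describes letters in this window and is not evidence of binding.

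**Figure D3:**
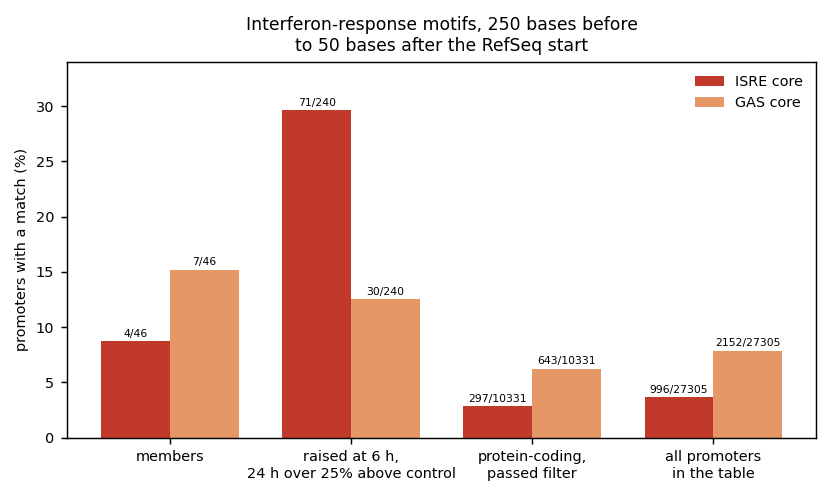
Bars give the percent of promoters, from 0, with an ISRE core or a GAS core in 4 gene sets, with the number matched over the number of promoters above each bar. The ISRE core was in 4 of 46 member promoters and 71 of 240 promoters of genes that stayed raised, and the GAS core in 7 of 46 and 30 of 240.

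JAK2, a tyrosine kinase that serves several cytokine receptors, was one of the 6 members placed in signalling. Its level was 40.95, 34.4 and 44.4 CPM at 6 h, 10.9, 10.2 and 9.53 CPM at 24 h and 9.71, 10.8 and 8.74 CPM in control. The 6 h libraries were about 4 times the control ones, with the widest relative spread of any member at 6 h, and the 24 h and control libraries overlapped. The group means were 39.9 ± 5.11 CPM at 6 h, 10.2 ± 0.709 CPM at 24 h and 9.74 ± 1.02 CPM in control (SD, n = 3 each), and the ratios to control were 4.098 at 6 h and 1.05 at 24 h. JAK1 and TYK2, the kinases of the type I interferon receptor, had 6 h ratios of 1.17 and 1.01. JAK1 averaged 217 ± 5.89 CPM at 6 h, 167 ± 0.763 CPM at 24 h and 186 ± 3.49 CPM in control, a log2 fold change of 0.23 at 6 h that passed the quasi-likelihood test of edgeR (Benjamini-Hochberg adjusted p = 3.2e-05) but not limma on the deposited normalized table. TYK2 averaged 67.1 ± 1.67 CPM at 6 h, 66.7 ± 3.12 CPM at 24 h and 66.3 ± 2.24 CPM in control, with a log2 fold change of 0.02 ± 0.044 (SE) that did not pass (adjusted p = 0.787), while with library size as the only scaling it was -0.12 and passed as lower.

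Several genes of the type I interferon pathway were still higher than control at 24 h. USP18, STAT2 and IRF9 were among the largest changes of the receptor, JAK-STAT and feedback list at 6 h. STAT2 averaged 334 ± 15.4 CPM at 6 h, 90.2 ± 3.93 CPM at 24 h and 21.6 ± 2.18 CPM in control (SD, n = 3 each), with a log2 fold change of 2.07 at 24 h (edgeR, adjusted p = 4.02e-13). USP18, the protease that limits receptor signalling, averaged 657 ± 9.76 CPM at 6 h, 143 ± 3.88 CPM at 24 h and 8.59 ± 0.648 CPM in control. IRF9 averaged 105 ± 0.694 CPM at 6 h, 69.9 ± 0.339 CPM at 24 h and 13.2 ± 2.15 CPM in control. Of the 28 genes on that list other than JAK2 that were tested, 8 were higher, 8 lower and 12 not past the threshold at 6 h, where 17.5% of all tested genes were called higher and 15.4% lower. At 24 h 10 were higher, 8 lower and 10 not past it, with 24.7% of all genes called higher and 25.3% lower.

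Among the members that act between receptors and adaptors, CEACAM1 had the highest 6 h ratio. This adhesion receptor, some of whose isoforms carry inhibitory motifs in the cytoplasmic tail, was at 113, 115 and 119 CPM at 6 h, 32.1, 32.6 and 32.2 CPM at 24 h and 28.5, 25.7 and 27.1 CPM in control. Its 6 h libraries lay within a narrow band, and its 24 h libraries stayed slightly above all controls, at ratios of 4.26 and 1.19. CXCL16, a membrane-anchored chemokine that binds CXCR6, was at 52.2, 56.9 and 51.01 CPM at 6 h, 24.96, 23.04 and 23.2 CPM at 24 h and 20.3, 19.1 and 18.5 CPM in control. The 3 groups were fully apart, with 24 h above control. Among the 14 other chemokine, cytokine and TNF family genes tested, 7 were higher, 1 lower and 6 not past the threshold at 6 h, and 12 were higher, 2 lower and 0 not past it at 24 h. Counts for this list and those that follow are to be read against the shares of all tested genes just given.

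TICAM1, the adaptor of TLR3 and TLR4 also called TRIF, was at 70.1, 70.4 and 70.2 CPM at 6 h, 27.5, 27.8 and 26.6 CPM at 24 h and 31.5, 31.9 and 31.5 CPM in control. The 6 h libraries were nearly equal, and the 24 h libraries lay below every control, at a ratio of 0.863. TRAFD1, a zinc finger protein known as an interferon-inducible brake on innate signalling, was at 83.1, 78 and 80.3 CPM at 6 h, 35.95, 37.3 and 35.5 CPM at 24 h and 30.8, 30.5 and 30.8 CPM in control. Its 24 h libraries lay above every control. NEK7, a kinase of mitosis that also binds the inflammasome sensor NLRP3, was at 139, 130.4 and 149.7 CPM at 6 h, 72.8, 72.2 and 63.6 CPM at 24 h and 66.8, 67.4 and 60.5 CPM in control. There the 24 h and control libraries overlapped. The 6 members placed in signalling had 6 h ratios from 2.15 to 4.26. This grouping of members by role, and the naming of the 17 members with the lowest ratios (2.02 to 2.23), were made after the values were seen.

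**Figure D4:**
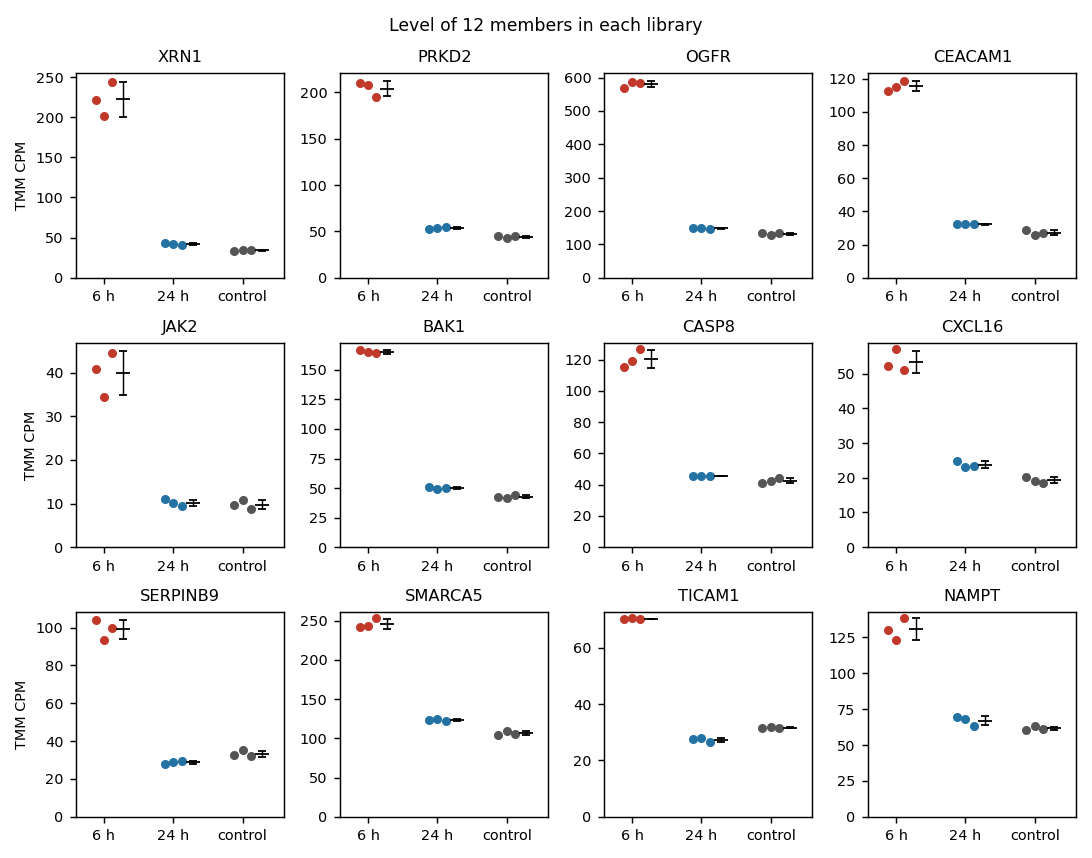
Each panel gives the TMM CPM of 1 member in the 9 libraries (coloured points) with the group mean and SD (black, n = 3), from left to right 6 h, 24 h and control, on an axis from 0. In all 12 panels the 6 h points lie above the rest; the 24 h points overlap control in JAK2, lie below it in SERPINB9 and TICAM1 and lie above it in the other panels.

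Both ends of the apoptotic cascade were represented. BAK1, which forms pores in the mitochondrial outer membrane, was at 167, 165 and 164 CPM at 6 h, 51.3, 49.4 and 50.4 CPM at 24 h and 42.4, 41.7 and 44.5 CPM in control. The 6 h libraries were within a few percent of each other, and the 24 h libraries lay above every control at a ratio of 1.17. CASP8, the initiator caspase of death receptors and the promoter above with both cores, was at 115, 119 and 126 CPM at 6 h, 45.8, 45.7 and 45.5 CPM at 24 h and 41.3, 42.3 and 44.4 CPM in control. Its 24 h libraries were almost equal and lay just above the highest control. SERPINB9, an inhibitor of granzyme B, was at 104, 93.5 and 99.7 CPM at 6 h, 27.8, 29.1 and 29.5 CPM at 24 h and 32.5, 35.1 and 32.3 CPM in control. It lay below every control at 24 h, at a ratio of 0.864.

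The nearest relatives of BAK1 and CASP8 had other patterns. BAX, the other pore-forming effector, averaged 43.5 ± 1.35 CPM at 6 h, 45.98 ± 1.23 CPM at 24 h and 51.9 ± 0.682 CPM in control (SD, n = 3 each) and was lower at 6 h by edgeR (log2 fold change -0.26, adjusted p = 0.000162), a call not made by limma on the deposited normalized table. CASP10 averaged 17.6 ± 0.881 CPM at 6 h, 10.1 ± 0.717 CPM at 24 h and 5.29 ± 0.752 CPM in control and was higher at both times, with log2 fold changes of 1.72 at 6 h and 0.93 at 24 h (edgeR, adjusted p = 1.58e-09 and 2.06e-06). Of the 26 tested cell death regulators other than BAK1 and CASP8, 21 were higher, 3 lower and 2 not past the threshold at 6 h. At 24 h 14 were higher, 7 lower and 5 not past it, where 24.7% of all tested genes were called higher and 25.3% lower, against 17.5% and 15.4% at 6 h.

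XRN1, the exonuclease that degrades decapped mRNA from its 5′ end, had the highest 6 h ratio of all members. It was at 221, 201 and 244 CPM at 6 h, 43.5, 41.9 and 41.2 CPM at 24 h and 33.3, 34.4 and 34.9 CPM in control. Library 3 was highest at 6 h and library 2 lowest, and the 24 h libraries lay above every control. The group means were 222 ± 21.7 CPM at 6 h, 42.2 ± 1.16 CPM at 24 h and 34.2 ± 0.792 CPM in control (SD, n = 3 each), ratios of 6.499 and 1.23. DCP1A, an activator of the decapping step that precedes XRN1, was at 137, 124 and 130.5 CPM at 6 h, 61.7, 61.6 and 63.96 CPM at 24 h and 55.3, 53.1 and 59.2 CPM in control. The 24 h libraries again lay just above control. XRN2, the nuclear exonuclease related to XRN1, averaged 68.7 ± 3.14 CPM at 6 h, 70.2 ± 2.15 CPM at 24 h and 59.9 ± 3.33 CPM in control, a log2 fold change of 0.203 at 6 h (edgeR, adjusted p = 0.00365) that did not pass with library size as the only scaling or on the deposited normalized table. DCP1B averaged 6.42 ± 0.913 CPM at 6 h, 8.38 ± 0.194 CPM at 24 h and 7.54 ± 1.202 CPM in control and did not pass at 6 h (adjusted p = 0.126, edgeR), though it passed as lower with library size as the only scaling (log2 fold change -0.41), without control replicate 3 (-0.38) or without 6 h replicate 1 (-0.36).

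Of 21 tested genes of mRNA decay and AU-rich element binding other than XRN1 and DCP1A, 7 were higher, 2 lower and 12 not past the threshold at 6 h, and 5 were higher, 6 lower and 10 not past it at 24 h. TIA1, which binds AU-rich elements, had the largest change, averaging 48.7 ± 3.68 CPM at 6 h, 34.01 ± 1.197 CPM at 24 h and 29.9 ± 2.39 CPM in control (log2 fold change 0.72 at 6 h, edgeR adjusted p = 3.83e-07). ZC3H12A, an endonuclease that clears inflammatory mRNAs, averaged 13.2 ± 0.679 CPM at 6 h, 11.8 ± 0.768 CPM at 24 h and 10.3 ± 0.417 CPM in control (log2 fold change 0.38, adjusted p = 0.0019, edgeR), a call lost with limma on the deposited normalized table at a pseudocount of 1. Other members that act on RNA were FYTTD1, an adaptor of mRNA export, INTS6L, a relative of an Integrator subunit, CTNNBL1, a spliceosome-associated protein, and CPEB2, which binds polyadenylation elements in 3′ UTRs. FYTTD1 was at 174, 169 and 189.7 CPM at 6 h, 60.2, 62.2 and 59.05 CPM at 24 h and 71.3, 69.7 and 71.4 CPM in control. Of the 6 RNA members it alone had every 24 h library below control, and in the other 5 they lay above.

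The 12 members of transcription, chromatin and DNA repair had 6 h ratios from 2.02 to 2.73. NFE2L3, a bZIP factor of the CNC family, was at 164, 161 and 168 CPM at 6 h, 61.97, 64.01 and 67.1 CPM at 24 h and 57.1, 59.7 and 63.96 CPM in control. USF1, which binds E-boxes, was at 60.7, 60.8 and 61.5 CPM at 6 h, 26.1, 27.3 and 26.7 CPM at 24 h and 25.8, 28.6 and 27.8 CPM in control. In both, the 24 h and control libraries overlapped. GLI3, a Hedgehog pathway factor, and CSRNP1, a nuclear protein with transcription-activating activity, were lower in abundance, GLI3 at 10.2, 11.04 and 12.1 CPM at 6 h, 5.04, 5.19 and 4.97 CPM at 24 h and 4.98, 4.78 and 4.24 CPM in control. CSRNP1 was at 19.4, 18.1 and 17.8 CPM at 6 h, 10.7, 10.3 and 10.2 CPM at 24 h and 8.75, 8.56 and 8.41 CPM in control. GLI3 overlapped control at 24 h, and CSRNP1 lay above it. GTF2E2, a subunit of the general factor TFIIE, had the lowest 6 h ratio of the set, 2.02, and the largest part of the rise left at 24 h.

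SMARCA5, the ATPase of ISWI chromatin remodellers, and BAZ1A, its partner in the ACF complex, were both members. SMARCA5 was at 242, 243 and 253 CPM at 6 h, 123, 125 and 122 CPM at 24 h and 104, 109 and 106 CPM in control. BAZ1A was at 120.1, 119 and 130.1 CPM at 6 h, 61.8, 58.97 and 58.99 CPM at 24 h and 61.5, 59.4 and 58.9 CPM in control. SMARCA5 stayed above every control at 24 h, whereas BAZ1A overlapped them at a ratio of 1.00. SMCHD1, which maintains silencing on the inactive X chromosome, was at 132, 121 and 149 CPM at 6 h, 60.1, 61.01 and 58.9 CPM at 24 h and 49.9, 52.1 and 51.6 CPM in control. It stayed above control at 24 h and had a wider spread at 6 h than most members. The DNA repair genes were DCLRE1C, the Artemis nuclease, SFR1, a recombination factor, HELB, a DNA helicase, and ADPRS, which removes ADP-ribose from serine. Their 6 h ratios were 2.11, 2.18, 2.34 and 2.29, and their 24 h ratios 1.04, 0.845, 1.23 and 1.08. Of these 4, SFR1 alone had every 24 h library below control.

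PRKD2, protein kinase D2, had the second highest 6 h ratio of the set. It was at 209.7, 208 and 195 CPM at 6 h, 52.7, 53.6 and 54.6 CPM at 24 h and 44.6, 43.2 and 44.9 CPM in control. Its 24 h libraries stayed above every control, at a ratio of 1.21. GNB4, a G protein beta subunit, was at 107, 108 and 124 CPM at 6 h, 31.97, 29.9 and 30.3 CPM at 24 h and 37.95, 36.6 and 34.5 CPM in control. It lay below every control at 24 h, at 0.845. The remaining regulators of this kind were ARAP2 and SIPA1L1, which speed GTP hydrolysis by small GTPases, CAB39, a scaffold of the kinase LKB1, GTPBP2, a GTP-binding protein linked to ribosome rescue, and PHACTR4, which binds protein phosphatase 1 and actin. Their 6 h ratios lay between those of SIPA1L1, 2.03, and ARAP2, 2.83. GTPBP1, the relative of GTPBP2, averaged 126 ± 4.45 CPM at 6 h, 69.5 ± 1.96 CPM at 24 h and 54.03 ± 1.79 CPM in control (SD, n = 3 each) and was higher at both times by edgeR (log2 fold changes 1.22 and 0.36, adjusted p = 1.07e-12 and 2.65e-06).

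Ubiquitin enzymes were few. RNF19B, a ligase of the RING-between-RING type, was at 192, 181 and 183 CPM at 6 h, 70.3, 66.8 and 66.8 CPM at 24 h and 65.7, 67.97 and 68.8 CPM in control. USP25, a deubiquitinase, was at 73.3, 67.7 and 76.3 CPM at 6 h, 36.3, 36.1 and 33.1 CPM at 24 h and 32.6, 29.96 and 33.6 CPM in control. In both, the 24 h and control libraries overlapped, with ratios of 1.01 and 1.096.

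The 8 members of membrane traffic and transport had 6 h ratios from 2.09 to 3.76. STIMATE, an endoplasmic reticulum protein that acts on the calcium sensor STIM1, was at 68.98, 67.5 and 68.3 CPM at 6 h, 22.8, 21.5 and 22.5 CPM at 24 h and 16.9, 19.3 and 18.4 CPM in control. EHD4, an endosomal ATPase, was at 135, 135 and 132 CPM at 6 h, 47.1, 43.6 and 43.5 CPM at 24 h and 45.1, 47.3 and 46.2 CPM in control. STIMATE stayed above every control at 24 h and EHD4 overlapped them. SEC24D of the COPII coat, the RAB5 effector ANKFY1, the sorting nexin SNX6, the endocytic adaptor CD2AP and LGALS8, a galectin that binds glycans exposed on damaged vesicles, all stayed above control at 24 h, with ratios from 1.09 in CD2AP to 1.23 in SEC24D. SLC30A4, a zinc transporter, was at 11.4, 12.7 and 14.6 CPM at 6 h, 5.79, 5.08 and 4.805 CPM at 24 h and 4.02, 5.74 and 5.74 CPM in control. Its control and 24 h libraries overlapped, and its control replicate 1 lay lowest. LGALS9, another galectin, averaged 270.4 ± 7.49 CPM at 6 h, 227 ± 4.06 CPM at 24 h and 5.35 ± 0.996 CPM in control and was higher at both times, with log2 fold changes of 5.64 and 5.38 (edgeR, adjusted p = 2.04e-18 and 1.16e-17).

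Among enzymes of metabolism, SAT1, which acetylates spermidine and spermine, was at 60.7, 61.6 and 66.1 CPM at 6 h, 20.5, 18.4 and 20.7 CPM at 24 h and 24.7, 22.4 and 22.2 CPM in control. It lay below every control at 24 h, at a ratio of 0.861. NAMPT, the rate-limiting enzyme of NAD salvage, was at 130.3, 124 and 139 CPM at 6 h, 69.5, 68.2 and 63.3 CPM at 24 h and 60.7, 63.1 and 60.8 CPM in control. Its 24 h libraries lay narrowly above control. CHSY3, a chondroitin sulfate synthase, was at 15.2, 15.2 and 15.2 CPM at 6 h, 6.55, 5.48 and 7.004 CPM at 24 h and 6.17, 3.98 and 5.22 CPM in control. Its 6 h libraries were almost equal, while its control libraries had the widest relative spread of any member, which limits its 24 h ratio of 1.24. CBR3, a carbonyl reductase, DNPEP, an aspartyl aminopeptidase, and MMAA, a mitochondrial protein of cobalamin handling, had 6 h ratios of 2.41, 2.24 and 2.15 and 24 h ratios of 1.005, 1.24 and 0.879.

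For 7 members no role is given. OGFR, the opioid growth factor receptor, was at 569.8, 587 and 585 CPM at 6 h, 150.2, 148 and 146 CPM at 24 h and 133, 129 and 135 CPM in control. Its 6 h libraries were within a few percent of each other, and its 24 h libraries lay above every control. SMIM14, a small membrane protein, was at 34.9, 34.4 and 36.6 CPM at 6 h, 9.62, 10.3 and 9.77 CPM at 24 h and 8.81, 8.36 and 7.76 CPM in control. It too stayed above control at 24 h. LYSMD2, TMEM106A, ERVK3-1, PSORS1C1 and NUDCD1 had 6 h ratios from 2.23 in NUDCD1 to 3.52 in LYSMD2. PSORS1C1 had the fewest counts of any member, 39 in control replicate 1, and lay below every control at 24 h, as did NUDCD1.

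Relatives of the members moved in both directions. Of 27 paralogs of 23 members, listed after the members were known, 9 were higher at 6 h, 6 lower and 12 not past the threshold by edgeR, where 17.5% of all tested genes were called higher and 15.4% lower. A ratio of 2 was reached by 3 of them (11.1%), CASP10, LGALS9 and GTPBP1, and by 4.11% of all tested genes. All 3 were more than 25% above control at 24 h.

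Some members share their start region or sequence with other genes, and since no source used here says whether counting was stranded, reads of overlapping genes cannot be told apart. By the deposited coordinates, 6 genes on the opposite strand start within 1000 bases of a member's start. Of these 5 were higher at 6 h, 0 lower and 1 not past the threshold, where edgeR called 17.5% of all tested genes higher and 15.4% lower. ZMYND15, whose start overlaps that of CXCL16, averaged 3.18 ± 0.307 CPM at 6 h, 0.853 ± 0.249 CPM at 24 h and 0.6502 ± 0.178 CPM in control (log2 fold change 2.32 at 6 h, edgeR adjusted p = 3.72e-06). TMOD2, which starts 11 bases from LYSMD2, averaged 3.43 ± 0.277 CPM at 6 h, 1.01 ± 0.0206 CPM at 24 h and 1.398 ± 0.336 CPM in control (log2 fold change 1.28, adjusted p = 5.98e-05, edgeR). The smaller rises were those of MAD2L1BP beside GTPBP2, with a log2 fold change of 0.56, and ENY2 beside NUDCD1, with 0.35 (adjusted p = 5.51e-06 and 2.66e-06, edgeR). SMARCA5-AS1, at under 1 CPM, had a log2 fold change of 1.41 (adjusted p = 0.0163, edgeR), a call that was lost with DESeq2, without control replicate 2 (1.08) and without 6 h replicate 3 (1.32). AL355353.1 beside CD2AP did not pass (adjusted p = 0.068, edgeR).

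Over the bodies of the genes, 19 members overlapped a tested gene and 38 none. Of the 26 overlapping genes 5 were higher at 6 h, 1 lower and 20 not past the threshold, with a median log2 fold change of 0.04. Over all tested genes 17.5% were called higher and 15.4% lower, so 5 of 26 is near the share of all genes. RUBCN, which overlaps FYTTD1 on the other strand, was at 101, 95.3 and 98.4 CPM at 6 h, 29, 28.2 and 26.4 CPM at 24 h and 37.6, 36.8 and 36.97 CPM in control. It followed FYTTD1 in time, above control at 6 h and below every control at 24 h, with log2 fold changes of 1.403 and -0.41 (edgeR, adjusted p = 4.13e-13 and 2.79e-06). In RefSeq the promoter window of FYTTD1, chr3:197749997-197750296, lies close to the start of RUBCN at 197749728. With the deposited start of FYTTD1, 197737179, RUBCN did not count above as a gene starting within 1000 bases. STIMATE-MUSTN1, a read-through annotation over STIMATE, averaged 2.93 ± 0.799 CPM at 6 h, 1.06 ± 0.589 CPM at 24 h and 0.586 ± 0.339 CPM in control (log2 fold change 2.41 at 6 h, adjusted p = 0.000541, edgeR). HNRNPA2B1, which overlaps NFE2L3, averaged 1148 ± 79.9 CPM at 6 h, 1137 ± 22.96 CPM at 24 h and 999.8 ± 17.4 CPM in control, a log2 fold change of 0.200 at 6 h that passed (edgeR, adjusted p = 0.000711) but did not with library size as the only scaling (0.06) or with limma on the deposited normalized table (0.36). POLH, which overlaps GTPBP2, was the 1 lower gene (log2 fold change -0.17, adjusted p = 0.0346, edgeR), and lost its call under 11 of the 17 alternatives run. Of the 80 nearest tested genes within 100 kb that are not members, 23 were higher at 6 h, 13 lower and 44 not past the threshold, with a median log2 fold change of 0.03. These counts too are to be read against 17.5% and 15.4% of all tested genes.

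Genes named as copies of 6 members passed the filter, and 5 of them were higher at 6 h by edgeR, where 17.5% of all tested genes were. NAMPTP1, a processed copy of NAMPT, held 45.8% of the counts of both and was at 113, 110.1 and 119 CPM at 6 h, 53.1, 55.7 and 57.2 CPM at 24 h and 50.4, 55.2 and 46.3 CPM in control. Its ratios of 2.25 and 1.09 were close to those of NAMPT, 2.12 and 1.09. BAK1P1 held 13.6% of the counts of BAK1 and its copy, with ratios of 3.66 and 1.099, and NFE2L3P1 held 2.25%, with ratios of 2.53 and 1.104. The 24 h ratio was 1.51 for SNX6P1 and 2.77 for SERPINB9P1, and OGFRP1 did not pass at 6 h (edgeR, adjusted p = 0.906). Reads of a processed copy and its parent can be split by the counting, so these levels are uncertain. Summed with its copy, NAMPT had ratios of 2.18 and 1.09 and BAK1 ratios of 3.82 and 1.16, and the summed ratios of all 6 members with a tested copy stayed within the rule. Without regard to gene type, 8 more genes met the rule, 3 of them these copies, and in 1, AC009245.1, a single 6 h library at 32.1 CPM stood above the other two at 13.6 and 9.86 CPM.

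The place of the members at 24 h depends on how libraries are scaled to each other. With TMM factors the median log2 ratio of all tested genes at 24 h was 0.00, with median-of-ratios factors 0.01, with library size only 0.08 while in the authors' own normalized values it was 0.44. At 6 h the medians were -0.01, -0.01, -0.14 and 0.18 in the same order. Inside the 24 h window of the rule lay 57, 57, 42 and 9 members, with median ratios of 1.09, 1.097, 1.15 and 1.48. Each scaling is 1 multiplier per library. Ratios taken relative to the median of all genes therefore nearly return to the TMM scale that chose the members. That all 57 then lay in the window was largely fixed in advance under each of the 4 scalings. The 24 h mean was below the 6 h mean in all 57 under each of them, which the limits of the rule also largely fixed in advance. No source used here says how the authors set the multiplier of each library in their normalized table, and it was the same in 6 h replicate 1 and control replicate 1 (0.0503) and in 6 h replicate 2 and control replicate 2 (0.0476), so what the 0.44 and the 9 members measure is uncertain.

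**Figure D5:**
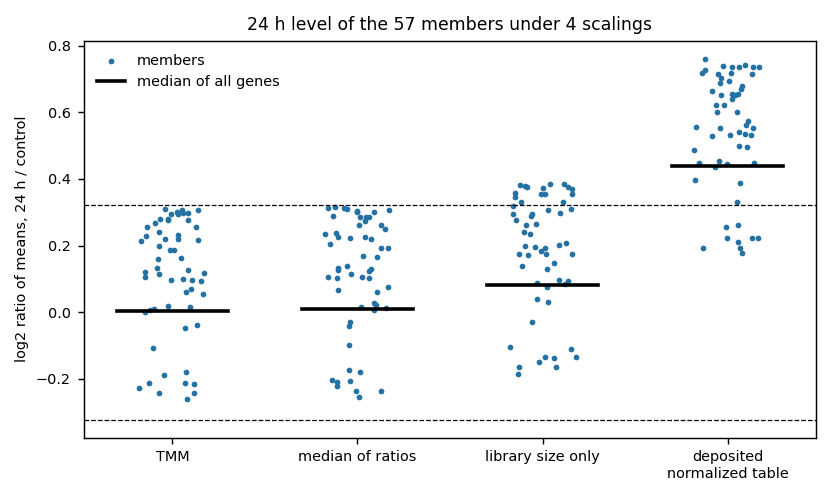
Points are the 57 members, placed by the log2 ratio of the 24 h to the control mean under each of 4 scalings, with a black bar at the median of all tested genes and dashed lines 20% below and 25% above control. The points move up together with the bar: 57, 57, 42 and 9 members lie between the lines from left to right.

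The replicates of each group lay close together for most members. The median coefficient of variation over members was 4.11% at 6 h, 3.10% at 24 h and 4.59% in control. Library 3 was the highest of the 6 h libraries in 37 members, library 1 in 13 and library 2 in 7. The deepest 6 h library was library 3, and whether depth had a part in this was not tested. In 42 members at least 1 library had an estimated count that was not whole (by more than 0.01), and in 15 all counts were whole.

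The members' gene models, from GENCODE 29, were longer than those of the other sets. The median gene length was 54.3 kb in members, 27.8 kb in genes that stayed raised and 32.5 kb in protein-coding genes that passed the filter. The median number of exons was 10, 9 and 9, and the median 3′ UTR 1296, 978 and 1034 bases. The pentamer ATTTA, the core of AU-rich elements, occurred at a median of 2.547, 1.551 and 1.605 per kb of 3′ UTR, with quartiles of 0.401 and 3.87 in members, 0 and 3.24 in genes that stayed raised and 0 and 3.18 in all. The longer AU-rich nonamer was in 3 of 56 members with a 3′ UTR (5.36%), EHD4, SLC30A4 and CSRNP1, beside 5.79% and 8.22% of the other sets. TICAM1 and BAZ1A had the densest pentamers, 6.51 and 6.49 per kb. These are descriptions, with wide quartiles that overlap between sets.

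The gene lists that follow held no member. Members were only 57 of 16964 tested genes and the lists are short, so nothing is read from this. Of 29 tested immediate early genes 11 were higher at 6 h, 10 lower and 8 not past the threshold by edgeR, and of 21 targets and feedback genes of NF-kB 11 were higher, 3 lower and 7 not past it. Of 20 interferon regulatory factors and other induced transcription factors 12 were higher, 2 lower and 6 not past it. All 30 antiviral genes were higher at both times, and their median log2 fold changes were 5.34 at 6 h and 3.90 at 24 h. That list was chosen for lasting induction with earlier results of these data known, so this result and its lack of members follow from the choice. Over all tested genes the medians were near 0.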

How the data were processed

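Total RNA libraries from SUIT2 cells were sequenced on an Illumina HiSeq instrument, per the labels' protocols. The submitters' processing notes name STAR 2.7.8a, Partek and hg38. No source used here gives the annotation release or the counting and strand settings. Per gene, the authors deposited estimated counts, some of them fractional, for 59609 genes. Counts had been assumed when the tests were planned, and rounding to whole numbers came before any test. The authors also deposited a normalized signal table, which was checked to be the estimated count plus 1e-04 times 1 multiplier per library, and it served for alternatives on its log2 scale. Groups came from the sample titles.

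Genes were filtered with filterByExpr (minimum count 10, minimum total 15) and fitted with TMM factors and the quasi-likelihood test of edgeR 4.0.16, under R 4.3.3 with limma 3.58.1, in 1 model over 9 libraries with 6 residual degrees of freedom. The threshold was a Benjamini-Hochberg adjusted p of 0.05 over 16964 genes. SEs are the absolute log2 fold change over the square root of the F statistic. The test was tested on simulated data with known changes. One count was worth 0.0232 to 0.0649 CPM, depending on the library.

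The members, the 11 gene lists and the paralogs were chosen with earlier results of these data known. Named genes followed a rule: the 40 members with the highest 6 h ratio, library values for members of a known role or a high level, genes just outside a threshold, called overlapping genes and up to 4 called genes per list. One gene the rule would name is not reported here. Library values of some members and the paralogs, head-to-head genes and copies named were chosen after the values were seen.

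Promoters and gene models came from RefSeq (GRCh38.p14) and GENCODE 29. Alternatives were DESeq2 1.42.0, median-of-ratios factors, library size only, no low-count filter, 2 groups per fit, a replicate block, limma on log2 of the deposited table with a pseudocount of 1 or 0.1, other limits of the rule, and each library left out. Ratios summed with pseudogene copies were added after seeing the data. Features and figures were made with Python 3.11.15, pandas 2.3.3, numpy 2.4.6 and matplotlib 3.10.9.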

Additional observations from a re-analysis of the deposited data

Results flagged for a closer look

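For 22 of 28 named genes that are not members, the change at 24 h differed from that at 6 h by edgeR's test of 24 h against 6 h. In that test 30.6% of all tested genes were called lower and 26.6% higher. Many of the named genes were picked because they were called at 6 h, most of them higher. The test uses the same 6 h libraries, so that choice favoured calls of lower at 24 h, and nothing is read from the count. Both changes are relative to the same controls. The test compared the group of 3 libraries at 24 h with the group of 3 at 6 h.

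Among genes that start beside or overlap a member, the log2 fold change of 24 h against 6 h was -1.87 for ZMYND15, -1.77 for TMOD2, -0.46 for ENY2, -0.26 for MAD2L1BP and -1.03 for SMARCA5-AS1. It was -1.81 for RUBCN, -1.44 for STIMATE-MUSTN1 and -0.19 for POLH. For copies of members it was -1.72 for BAK1P1, -0.90 for SERPINB9P1, -1.17 for NFE2L3P1, -1.04 for NAMPTP1 and -0.57 for SNX6P1.

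Among relatives of members it was -0.37 for JAK1, 0.41 for DCP1B, -0.80 for CASP10, -0.25 for LGALS9 and -0.86 for GTPBP1. In the signalling and decay lists it was -2.20 for USP18, -1.89 for STAT2, -0.59 for IRF9 and -0.53 for TIA1.

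The call of SMARCA5-AS1 was lost with DESeq2 (-1.04), with limma on the deposited normalized table (-0.27 and -0.64), without 6 h replicate 1 or 3 (-0.905 and -0.94) and without 24 h replicate 3 (-0.97). Calls for ENY2, IRF9, JAK1, TIA1 and SERPINB9P1 were lost on the deposited normalized table, for SERPINB9P1 with 1 of the pseudocounts. Calls for MAD2L1BP, SNX6P1, LGALS9 and POLH were lost or reversed there and with library size as the only scaling.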

How the results depend on the processing

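The number of genes meeting the rule was 57 with median-of-ratios factors, and the same genes, 59 without a low-count filter (53 shared), 42 on the deposited normalized table (9 shared) and 33 with library size only. It was 10 at a 6 h ratio of at least 3 and 217 at 1.5, and 21 with a 24 h window of 0.9 to 1.1 and 112 with 0.67 to 1.5. With each library left out in turn it was 55 to 63, and 46 members were kept each time. The 11 lost at least once were BAZ1A, CHSY3, CTNNBL1, CXCL16, DNPEP, GTF2E2, GTPBP2, HELB, SEC24D, SIPA1L1 and STIMATE. The members' ratios summed with pseudogene copies all stayed within the rule.

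Genes passing numbered 5576 at 6 h (2968 higher, 2608 lower), 8475 at 24 h (4191 and 4284) and 9704 at 24 h against 6 h (4520 and 5184). With library size only the splits were 1669 and 6192, 5500 and 3078, and 8229 and 2475. Limma on the deposited normalized table gave 1826 or 1854 at 6 h (pseudocount 1 or 0.1), split 1615 and 211 with a pseudocount of 1, 8575 and 321 at 24 h, and 5849 or 5636 at 24 h against 6 h, split 4874 and 975. Leaving out each library gave 4722 to 5489, 7497 to 8981 and 8847 to 9739. The cause of these differences was not tested. With a replicate block, 5149, 8133 and 9393 genes passed. Deviations of libraries from their group means had correlations of -0.105 to 0.039 over 9 pairs with the same number. Over 18 pairs with different numbers they were -0.046 to 0.108. Such correlations cannot show whether the samples were paired, and the labels do not say what the numbers mean.

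Of 475 values of 28 other named genes at 6 h under alternatives, 446 kept their side of the threshold, and of 476 at 24 h against 6 h, 439 did. For called genes this includes the direction. A gene called in neither fit was counted as kept whatever its sign, as with OGFRP1 at 6 h, whose log2 fold changes ran from -0.113 to 0.165. Reversed with library size only were TYK2 at 6 h (-0.12), and at 24 h against 6 h TYK2 (0.21), HNRNPA2B1 (0.20) and POLH (0.028). Reversed on the deposited normalized table were POLH at 6 h (0.006), and at 24 h against 6 h POLH (0.08 and 0.083), MAD2L1BP (0.017 and 0.019) and LGALS9 (0.019).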
